A study of Mus musculus with 6 samples.

Results

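The smooth muscle actin genes and the targets of the SRF and YAP transcription programmes were followed in undifferentiated mouse embryonic stem (ES) cells, as a set of 10 genes. They are Acta2, Tagln, Cnn1, Myl9, Tpm1, Tpm2, Actg2, Ccn2 (formerly Ctgf), Ccn1 (formerly Cyr61) and Ankrd1. Members were all probe sets that the platform annotation gives 1 of these symbols, and 10 probe sets of 35557 qualified, 1 for each gene. All 10 lay above the low-value filter described below, which kept 25142 probe sets. The genes were selected on values of these same arrays, their spread among the arrays of a line and their difference between the lines, so both are described here without a test.

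Expression was measured on 6 Affymetrix Mouse Gene 1.0 ST arrays, 3 of the Hira-null ES cell clone Cl34 (genotype Hira-/-) and 3 of the parental line w9.5 (genotype WT), each numbered as biological replicates 1 to 3. HIRA places the variant histone H3.3 into chromatin outside DNA replication. Both lines were grown in ES cell medium with serum and LIF (sold as ESGRO), and no other treatment is named. Cultures were harvested at several confluence stages, but the stage of each array is not labelled and could not be set against the values. The Hira-null arrays are of 1 clone, so loss of Hira and any other feature of that clone cannot be told apart. The labels do not say whether replicates were separate cultures, and the spread between arrays may be partly technical.

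Serum response factor (SRF) is a transcription factor that binds CArG boxes near the genes of the actin cytoskeleton and of smooth muscle. Its cofactors MRTF-A and MRTF-B are held by free actin monomers, so that polymerisation of actin releases them to the nucleus. YAP and TAZ are the coactivators restrained by the Hippo kinases. They act through TEAD factors, and their activity varies with cell density, shape and tension. Ccn1, Ccn2 and Ankrd1 are among their most used readouts, and several contractile genes respond to both systems.

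Array medians lay between 4.93 and 5.02. Levels are the deposited values, on a scale read as log2, where 1 unit is a 2-fold step. Hira, the targeted gene, read 7.40, 7.05 and 6.81 in Hira-null arrays, against 7.49, 7.86 and 7.83 in WT arrays. Its log2 difference was -0.64 (SE 0.19, limma adjusted p = 0.352), and the deleted part of the gene is not named. Hira-null replicate 3 stood apart from the rest over all probe sets kept. Its correlations with the other arrays, across probe sets that are not independent, were 0.947 to 0.962, whereas the other pairs of arrays lay between 0.963 and 0.986. For the 10 genes and for the median of each gene list, the line difference is also given without this array and WT replicate 1. The ES cell markers Pou5f1, Nanog, Sox2 and Dppa5a read between 9.44 and 12.39 on all arrays, and the lowest of the 8 ES cell markers read 7.98.

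Promoter sequences of 7 of the 10 genes were found in a RefSeq table of the assembly GRCm38.p6 (Acta2, Cnn1, Myl9, Tpm1, Tpm2, Ccn1 and Ankrd1). Tagln, Actg2 and Ccn2 had no entry. The 250 bases before each start site were searched for the CArG box, for a CArG box with at most 1 G or C in its A/T core, and for GGAATG, the core of the TEAD site, on both strands. The stretches that hold a match are shown with 20 bases on either side. Any link between these matches and the levels over the arrays was not tested. Capitals mark the matches, and positions count back from the start site in that table, which is the base after -1.
Acta2, chr19:34255378-34255539, minus strand: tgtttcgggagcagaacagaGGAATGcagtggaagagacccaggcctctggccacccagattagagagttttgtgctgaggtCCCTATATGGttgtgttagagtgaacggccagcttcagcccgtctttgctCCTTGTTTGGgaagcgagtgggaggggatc
Myl9, chr2:156775283-156775394, plus strand: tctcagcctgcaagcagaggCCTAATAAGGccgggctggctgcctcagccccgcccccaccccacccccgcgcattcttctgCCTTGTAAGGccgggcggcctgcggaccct
Tpm1, chr9:67049244-67049289, minus strand: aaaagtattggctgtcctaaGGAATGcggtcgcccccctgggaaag
Ccn1, chr3:145650063-145650108, minus strand: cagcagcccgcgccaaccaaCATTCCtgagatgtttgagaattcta
Ankrd1, chr19:36119942-36120074, minus strand: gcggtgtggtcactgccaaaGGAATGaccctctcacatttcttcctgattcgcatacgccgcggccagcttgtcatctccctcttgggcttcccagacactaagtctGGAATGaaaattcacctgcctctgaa

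The Acta2 window held 2 CArG boxes with 1 G or C each, starting at -84 and -34, and a GGAATG at -146. Myl9 held a perfect CArG box at -161 and an imperfect one at -99. GGAATG stood at -210 and -123 before Ankrd1, at -56 before Tpm1 and, as CATTCC on the printed strand, at -103 before Ccn1. The windows of Cnn1 and Tpm2 held none of these letters. A perfect CArG box was present in 1.47% of 32851 promoters, one with at most 1 G or C in 8.59%, and GGAATG on either strand in 12.6%. The Acta2 and Tpm1 stretches lie inside the annotated spans of their genes, which reach farther upstream. Those of Myl9, Ccn1 and Ankrd1 lie before the gene. A match is a stretch of letters and not a bound site.

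For all 10 genes more of the sum of squares lay among the arrays of a line than between the lines, whose share was 0.777% to 49.8%. This was not particular to them: the median share between the lines was 16% over all probe sets kept, against 23.8% over the 10 genes. The same arrays were high for most of them. WT replicate 1 was the highest WT array for 9 of the 10 genes, against 35.7% of all probe sets kept. Hira-null replicate 3 was the highest Hira-null array for 9 of 10, against 36.2% of all. Both held for 8 genes (19.6% of all probe sets), the exceptions being Myl9 and Actg2. For 6 genes (Acta2, Tagln, Tpm1, Tpm2, Ccn1 and Ankrd1) these 2 arrays lay above the other 4, which was so for 13% of all probe sets. Over all probe sets kept, the deviations of these 2 arrays from their line means correlated at 0.44. That was the highest of all pairings across the lines, so the shared deviation was not confined to the 10 genes.

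At the low end, Hira-null replicate 2 was the lowest of its line for 8 of 10 genes, against 25.9% of all probe sets. WT replicate 3 was the lowest of its line for 8 of 10, against 30.6% of all. Averaged over the 10 genes, the deviation from the gene mean was -0.41, -0.88 and 0.33 in the Hira-null arrays, against 1.09, 0.17 and -0.30 in the WT arrays. The highest and lowest arrays were 1.20 apart in the Hira-null line and 1.39 apart in WT.

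**Figure D1:**
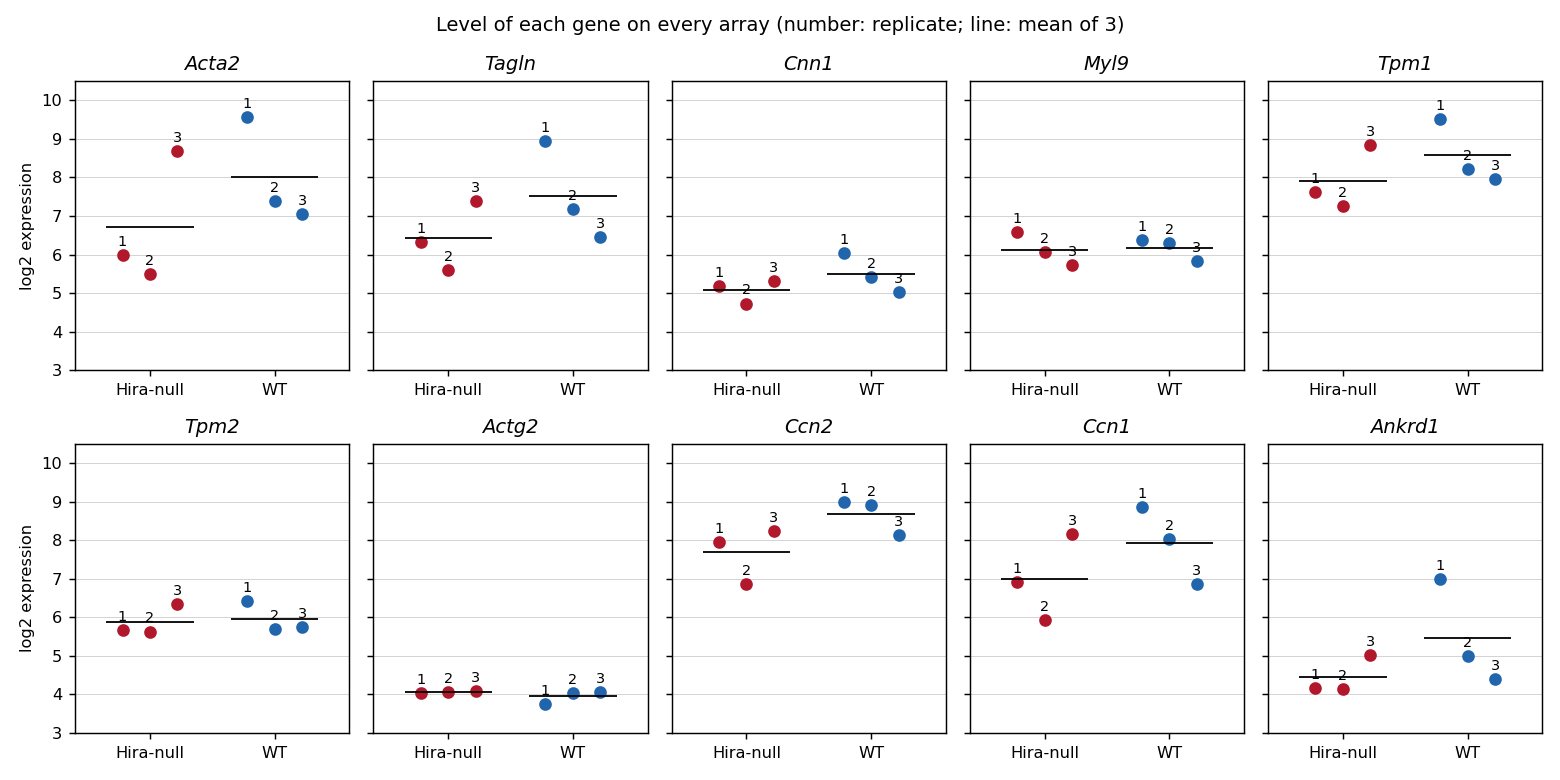
Deposited expression, read as log2, of each of the 10 genes on every array, with Hira-null arrays in red and WT arrays in blue. Numbers beside the points are replicate numbers and horizontal lines are means of 3 arrays. Acta2 runs from 5.49 to 9.57, with Hira-null replicate 3 and WT replicate 1 at the top, whereas Actg2 stays between 3.75 and 4.09.

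Among the contractile genes, Acta2, which encodes smooth muscle alpha-actin, had the widest spread. It read 6.0, 5.49 and 8.68 in Hira-null arrays, against 9.57, 7.40 and 7.05 in WT arrays. Hira-null replicate 3 was thus above WT replicates 2 and 3, and the lines overlapped. The spread was 9.13-fold over the Hira-null arrays and 5.74-fold over the WT arrays. Of the 25142 probe sets kept, 16 had a wider range over the Hira-null arrays and 11 over the WT arrays. The means were 6.72 ± 1.71 in Hira-null and 8.01 ± 1.37 in WT arrays (SD, n = 3 each), a log2 difference of -1.28 (SE 0.96).

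Tagln encodes transgelin, also called SM22-alpha, an actin-binding protein and a classical SRF target. Its values were 6.32, 5.60 and 7.39 in Hira-null arrays, against 8.94, 7.18 and 6.46 in WT arrays. WT replicate 1 was the highest array and Hira-null replicate 3 the next. The range was 5.58-fold in WT arrays, wider than for all but 14 probe sets, and 3.46-fold in Hira-null arrays. The log2 difference between the lines was -1.09 (SE 0.69), from means of 6.44 ± 0.90 in Hira-null and 7.53 ± 1.28 in WT arrays (SD, n = 3 each).

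Tropomyosins are coiled-coil proteins that wind along actin filaments. Tpm1 read 7.62, 7.27 and 8.83 in Hira-null arrays, against 9.51, 8.23 and 7.97 in WT arrays, a log2 difference of -0.66 (SE 0.52). Its pattern over the 6 arrays was the nearest to the mean of the 10 genes, with a root mean square difference of 0.18. Tpm2 showed the same 2 high arrays at a smaller scale. It read 5.68, 5.63 and 6.34 in Hira-null arrays, against 6.41, 5.69 and 5.74 in WT arrays, and the line means differed by -0.06 (SE 0.27).

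Cnn1 encodes calponin 1, an actin-binding protein of differentiated smooth muscle. It read 5.18, 4.73 and 5.31 in Hira-null arrays, against 6.03, 5.42 and 5.02 in WT arrays. WT replicate 1 was highest and Hira-null replicate 2 lowest, and the log2 difference was -0.42 (SE 0.28). The range was 0.58 over the Hira-null arrays and 1.01 over the WT arrays, where the medians over all probe sets kept were 0.42 and 0.33.

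Myl9 and Actg2 did not share the pattern. Myl9 encodes the regulatory light chain of smooth muscle and non-muscle myosin. Its values were 6.58, 6.06 and 5.72 in Hira-null arrays, against 6.38, 6.30 and 5.84 in WT arrays, so Hira-null replicate 3 was here the lowest of the 6. The line means differed by -0.05 (SE 0.25). The window of Myl9 was the one with the perfect CArG box. Actg2 encodes the gamma-actin of enteric smooth muscle. It read 4.04, 4.06 and 4.09 in Hira-null arrays, against 3.75, 4.04 and 4.05 in WT arrays, close to the filter value of 3.78 on every array. Its difference was 0.12 (SE 0.13).

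The YAP readouts followed the contractile genes over the arrays. Averaged over Ccn2, Ccn1 and Ankrd1, deviations were -0.52, -1.22 and 0.28 in Hira-null arrays, against 1.42, 0.45 and -0.40 in WT arrays. The 7 contractile genes gave -0.36, -0.73 and 0.35 in Hira-null arrays, against 0.95, 0.05 and -0.26 in WT arrays. The order of the 6 arrays was the same for both groups, with the exception that Hira-null replicate 3 and WT replicate 2 changed places.

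Ccn2 encodes connective tissue growth factor, a secreted matricellular protein. It read 7.96, 6.87 and 8.24 in Hira-null arrays, against 9.0, 8.91 and 8.14 in WT arrays. Hira-null replicate 3 lay just above WT replicate 3, and the other Hira-null arrays were below all WT arrays. The means were 7.69 ± 0.72 in Hira-null and 8.68 ± 0.47 in WT arrays (SD, n = 3 each), a log2 difference of -0.99 (SE 0.39), or 1.99-fold lower. Of the 10 genes, Ccn2 had the largest share of its sum of squares between the lines, 49.8%, whereas the median over the 10 was 23.8% and that over all probe sets kept was 16%.

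Ccn1 encodes the related matricellular protein CYR61. Its values were 6.92, 5.92 and 8.15 in Hira-null arrays, against 8.86, 8.03 and 6.86 in WT arrays. The spread was 4.69-fold in Hira-null and 4.0-fold in WT arrays, and the lines overlapped. The log2 difference was -0.92 (SE 0.67). Ankrd1 encodes an ankyrin repeat protein of the nucleus and the sarcomere, best known from heart muscle. It read 4.16, 4.13 and 5.03 in Hira-null arrays, against 6.98, 4.99 and 4.40 in WT arrays. Hira-null replicates 1 and 2 and WT replicate 3 were thus low, below all array medians and not far above the filter value of 3.78. WT replicate 1 carried most of the range of Ankrd1, which was 5.98-fold over the WT arrays and was exceeded by 7 probe sets. The log2 difference was -1.02 (SE 0.64), and -0.25 without WT replicate 1.

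**Figure D2:**
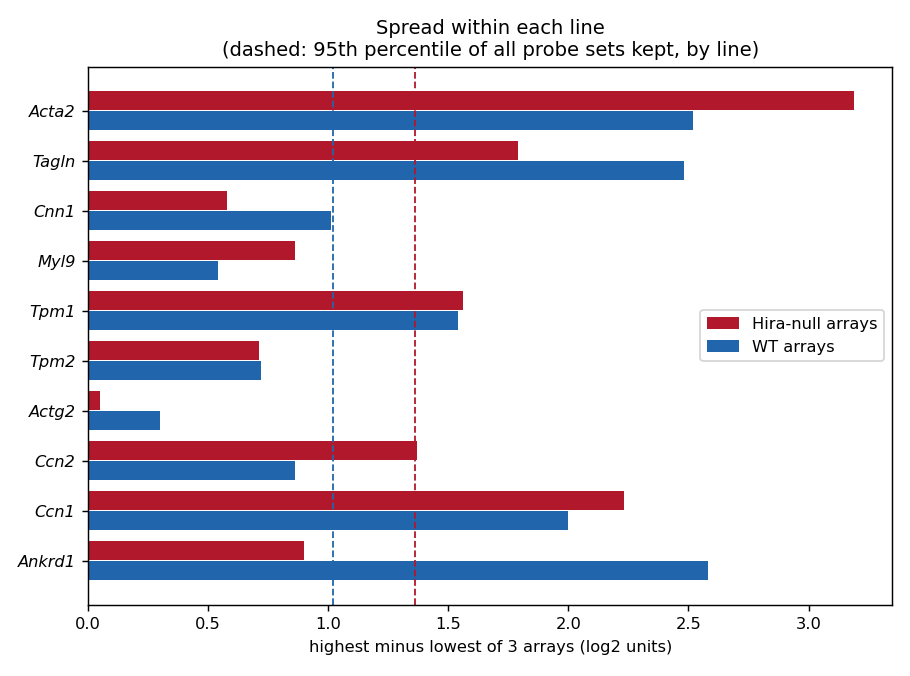
Highest minus lowest of the 3 arrays, in log2 units, for each gene within the Hira-null line (red) and within WT (blue). Dashed lines mark the 95th percentile over all probe sets kept, 1.36 for Hira-null and 1.02 for WT arrays. Acta2, Tagln, Tpm1 and Ccn1 pass it in both lines, Ccn2 in the Hira-null line and Ankrd1 in WT.

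Over the 10 genes the median range was 1.14 in Hira-null and 1.27 in WT arrays, against 0.42 and 0.33 over all probe sets kept. The plot of ranges by line shows that the spread was present in both lines and differed from gene to gene. In Hira-null arrays it ran from 0.05 for Actg2 to 3.19 for Acta2. In WT arrays it ran from 0.30 for Actg2 to 2.58 for Ankrd1.

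Between the lines, 9 of the 10 genes had a lower mean in Hira-null arrays, as had 49% of all probe sets kept. The median difference was -0.79, against 0.003 over all probe sets. With limma, 0 of the 10 passed an adjusted p of 0.05 (0.00398% of all probe sets, 1 probe set that is not of these genes). At an unadjusted p under 0.05 there was 1 of 10, Ccn2, against 10.1% of all. The groups of arrays were free of overlap for 0 of the 10 genes, against 15.3% of all probe sets (8.17% with Hira-null lower). Nothing is read from these counts, since the genes were chosen with this contrast known.

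The size of the difference depended on which arrays were used. Without WT replicate 1 the median was -0.22, and without Hira-null replicate 3 it was -1.20. Without Hira-null replicate 2 it was -0.36. Acta2 moved most, at -0.50 without WT replicate 1 and -2.26 without Hira-null replicate 3. With both of these arrays left out, 8 of 10 genes were lower in Hira-null arrays and the median was -0.60.

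With those 2 arrays left out, Hira-null replicates 1 and 2 lay below WT replicates 2 and 3 for 6 genes, Acta2, Tagln, Tpm1, Tpm2, Ccn2 and Ankrd1, which was so for 18.5% of all probe sets. Acta2 then averaged 5.74 in Hira-null and 7.22 in WT arrays, 2.79-fold lower. Ccn2 averaged 7.42 in Hira-null and 8.53 in WT arrays, 2.16-fold lower. Ccn1 was 2.03-fold lower, with 1 overlapping array in each line. Tagln was 1.82-fold, Tpm1 1.57-fold, Ankrd1 1.46-fold and Cnn1 1.20-fold lower. Myl9 stood at 0.25, higher in Hira-null arrays, and Tpm2 (-0.06) and Actg2 (0) were nearly level.

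**Figure D3:**
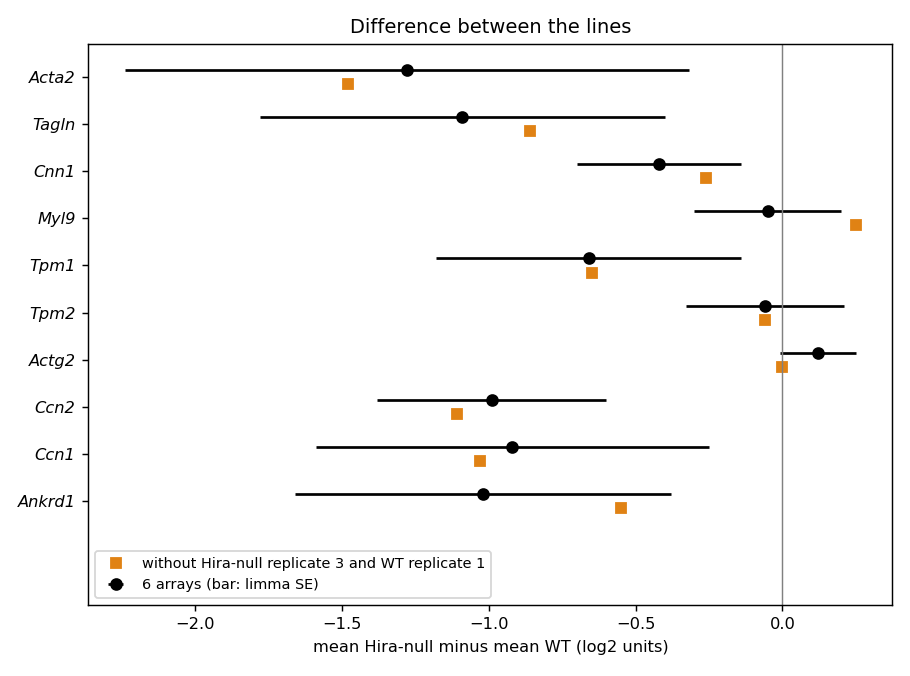
Mean of Hira-null minus mean of WT arrays in log2 units. Black points use all 6 arrays, with bars for the standard error from limma, and orange squares leave out Hira-null replicate 3 and WT replicate 1. Acta2 lies at -1.28 with all arrays and -1.48 without these 2, Ccn2 at -0.99 and -1.11, and Myl9 at -0.05 and 0.25.

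The upstream regulators came next. Of 12 SRF and actin regulators, 10 were measured, 2 with higher and 8 with lower means in Hira-null arrays and a median of -0.07 (median over all genes -0.01). By limma 0 of 10 passed, and 0 of 10 had an unadjusted p under 0.05, against 1590 of all 15199 genes kept. WT replicate 1 and Hira-null replicate 3 were each the highest of their line for 1 of the 10 (10%), against 23% of all genes kept. These shares over all genes are the ones to set beside each list below. Diaph1, a formin that nucleates actin filaments, read -0.57 (SE 0.29). The coactivator gene Mrtfb and the cofilin gene Cfl1 each read 0.17, and the SRF partner Elk1 read -0.13.

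Srf itself, picked after its values were seen, did not share the array pattern of most of the contractile genes. It read 8.11, 7.24 and 6.66 in Hira-null arrays, against 7.14, 8.01 and 7.26 in WT arrays, and was lowest in Hira-null replicate 3. Myocd, the smooth muscle coactivator of SRF, read 3.94 at most and did not pass the filter.

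Hippo pathway and TEAD genes had 16 of 17 measured, 8 higher and 8 lower in Hira-null arrays, with a median of -0.02. WT replicate 1 and Hira-null replicate 3 were each the highest of their line for 8 of the 16 (50%), against 23% of all genes kept, and the list medians were 0.11 and 0.16 in these arrays. Again 0 of 16 passed in limma, and 0 of 16 had an unadjusted p under 0.05. The TEAD genes Tead4 (0.27, SE 0.12), Tead2 (0.27, SE 0.16) and Tead3 (0.22, SE 0.14) and the kinase adaptor gene Sav1 (-0.31, SE 0.15) had the smallest p. Yap1, named after its values were seen, was almost level, at 8.28, 8.37 and 8.20 in Hira-null arrays, against 8.23, 8.25 and 8.27 in WT arrays. Wwtr1, which encodes TAZ and was likewise picked afterwards, read 7.09, 6.84 and 7.86 in Hira-null arrays, against 7.53, 7.09 and 7.13 in WT arrays. It was highest in the same array of each line as Acta2.

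Other actin and smooth muscle targets of SRF and MRTF were measured for 24 of 25 genes. Of these, 10 were higher and 14 lower in Hira-null arrays, with a median of -0.07, 0 of 24 passed in limma and 2 had an unadjusted p under 0.05. WT replicate 1 and Hira-null replicate 3 were each the highest of their line for 14 of the 24 (58.3%), against 23% of all genes kept. The intermediate filament gene Des stood at -0.92 (SE 0.36) and the smoothelin gene Smtn at -0.48 (SE 0.19). Tagln2, a relative of Tagln, stood at 0.35 (SE 0.17) and the filamin gene Flna at 0.26 (SE 0.12).

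Some genes of that list shared the high arrays, and others were flat. Acta1, the skeletal muscle alpha-actin gene, read 6.08, 6.03 and 7.69 in Hira-null arrays, against 8.26, 6.50 and 6.15 in WT arrays. Actb, the cytoplasmic beta-actin gene, stayed between 12.40 and 12.53. Both were picked after their values were seen. Actin genes are near-identical in coding sequence, and the probes' own sequences were not looked at here. Signal shared between Acta2, Acta1, Actg2 and other actins was therefore not separated.

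The immediate-early targets, which SRF controls with ternary complex factors, were all measured (10 of 10). They were 5 higher and 5 lower in Hira-null arrays, with a median of 0.01, and 0 of 10 passed in limma, with 1 at an unadjusted p under 0.05. This was Mcl1, a survival factor gene, at 0.39 (SE 0.13). Dusp1 stood at 0.40 (SE 0.31), Ier2 at -0.50 (SE 0.46) and Egr3 at 0.12 (SE 0.12). For 1 of these 10 genes (10%) WT replicate 1 and Hira-null replicate 3 were each the highest of their line. Their median deviations were -0.17 in Hira-null replicate 3 and -0.16 in WT replicate 1, the 2 lowest of the 6 arrays. Srf, given above, was also lowest in these 2 arrays, at 6.66 in Hira-null replicate 3 and 7.14 in WT replicate 1.

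Other YAP and TEAD targets had 18 of 21 measured, 9 higher and 9 lower in Hira-null arrays, with a median of 0. In limma 0 of 18 passed, and 4 had an unadjusted p under 0.05, against 1590 of all 15199 genes kept. Gadd45a, a growth arrest gene, stood at 1.13 (SE 0.19), the ferlin gene Myof at 0.85 (SE 0.28) and Nt5e, the ecto-nucleotidase CD73, at 0.82 (SE 0.29). Igfbp3 stood at -0.43 (SE 0.13). Of these 4, then, 3 had higher means in Hira-null arrays, the opposite of Ccn1 and Ccn2.

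By array, the medians of that list were -0.05, -0.20 and 0.31 in Hira-null arrays, against 0.42, -0.10 and -0.23 in WT arrays, with the same 2 arrays high. These arrays were each the highest of their line for 9 of the 18 genes (50%), against 23% of all genes kept. Thbs1, the thrombospondin 1 gene, and F3, the tissue factor gene, picked after their values were seen, had the widest ranges. Thbs1 read 6.74, 5.84 and 8.05 in Hira-null arrays, against 8.56, 7.62 and 6.66 in WT arrays. F3 read 5.17, 4.97 and 7.47 in Hira-null arrays, against 6.48, 5.72 and 5.53 in WT arrays, so the highest value was that of Hira-null replicate 3.

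TGF-beta targets were measured for 7 of 8 genes. WT replicate 1 and Hira-null replicate 3 were each the highest of their line for 2 of the 7 (28.6%), Tgfbi and Ltbp2. Of the 7, 4 were higher and 3 lower in Hira-null arrays, with a median of 0.30, 0 of 7 passed in limma and 2 had an unadjusted p under 0.05. Tgfbi, a matrix protein gene, read 0.87 (SE 0.25), Smad7 0.45, Pmepa1 0.35 and Bambi 0.30 (SE 0.12). Skil (-0.11), Inhba (-0.03) and Ltbp2 (-0.02) were near level. The list medians were 0.23, 0.06 and -0.01 in Hira-null arrays, against -0.14, -0.13 and -0.11 in WT arrays.

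**Figure D4:**
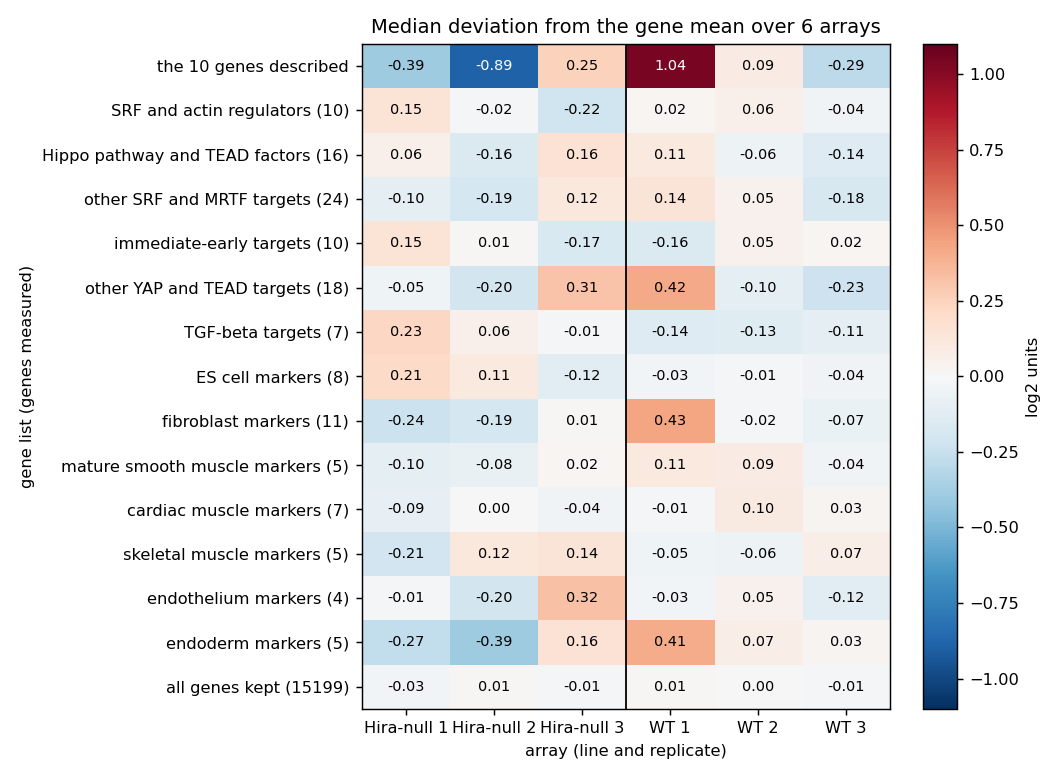
Median over the genes of each list of the deviation from each gene's own mean, in log2 units, with Hira-null arrays to the left and WT arrays to the right of the black line. The 10 genes range from -0.89 in Hira-null replicate 2 to 1.04 in WT replicate 1. All genes kept stay between -0.03 and 0.01.

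Markers of other cell types moved in part with the same arrays. Bulk RNA cannot separate fewer cells of a type from less RNA per cell. Of 17 fibroblast and feeder markers, 16 have a probe set of their own and 11 passed the filter. Their medians were -0.24, -0.19 and 0.01 in Hira-null arrays, against 0.43, -0.02 and -0.07 in WT arrays. The summed linear level of the 16 ran from 2360 to 3220 in Hira-null and from 2470 to 3910 in WT arrays, with the top values in Hira-null replicate 3 and WT replicate 1. Such a sum is carried mainly by the highest genes, here Fn1 (10.15 to 10.93) and Vim (9.34 to 10.55). Fn1 was the highest of each line in these 2 arrays, whereas Vim was lowest of all in Hira-null replicate 3. The collagen gene Col1a1 read 6.12, 6.31 and 7.40 in Hira-null arrays, against 7.67, 6.69 and 6.64 in WT arrays. Another collagen gene, Col3a1, stayed between 5.0 and 5.30. Both were picked after their values were seen.

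Not all fibroblast genes were seen. The proteoglycan genes Dcn and Lum, with Postn, S100a4 and Lox, lay between 2.24 and 3.55 on all arrays, below the filter value of 3.78. WT replicate 1 and Hira-null replicate 3 were each the highest of their line for 5 of the 11 measured markers (45.5%), against 23% of all genes kept. Of these 11, 3 were higher and 8 lower in Hira-null arrays, with a median of -0.32, and 50.8% of all genes kept were lower. In limma 0 passed, and 3 had an unadjusted p under 0.05 (1590 of all 15199 genes kept). Thy1 stood at 0.76 (SE 0.19), Vim at -0.61 (SE 0.23), Twist2 at -0.40 (SE 0.13) and Twist1 at -0.31 (SE 0.14). Their part in the spread of the 10 genes was not tested.

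Endoderm markers had 5 of 7 measured (Sox17, Gata6, Gata4, Lamb1 and Sparc), with Afp and Ttr below the filter. All 5 had lower means in Hira-null arrays, against 50.8% of all genes kept. Their differences ran from -0.55 for Gata6 to -0.18 for Gata4, with a median of -0.33. In limma 0 passed, and 1 had an unadjusted p under 0.05 (1590 of all 15199 genes kept). WT replicate 1 and Hira-null replicate 3 were each the highest of their line for 4 of 5, against 23% of all genes kept. The summed level of all 7, carried mainly by Lamb1 and Sparc, ran from 1150 to 1830 in Hira-null arrays and from 1480 to 2160 in WT arrays. Their part was likewise not tested.

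Several defining markers of mature muscle were low. Of 6 mature smooth muscle markers 5 were measured, with a median of -0.11, 0 passed in limma and 2 had an unadjusted p under 0.05. The smooth muscle myosin gene Myh11 stayed between 4.47 and 4.68, Synpo2 between 4.28 and 4.45, and Lmod1 between 4.99 and 5.52. Des and Smtn, given above, were the higher ones. The summed level of the 6 ran from 253 to 332 in Hira-null and from 340 to 494 in WT arrays, and the 2 arrays were each the highest of their line for 2 of the 5.

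The 7 cardiac markers had a median of -0.21, with 0 passing and 0 at an unadjusted p under 0.05. Myh6, Myh7, Tnnt2, Nppa and Myl2 read 5.21 at most, and Nkx2-5 and Myl7 lay between 4.98 and 6.16. For 0 of the 7 did the 2 arrays stand highest in their lines. The 5 skeletal muscle markers had a median of -0.04, again with 0 at an unadjusted p under 0.05, and Myod1, Myog and Ckm read 4.90 at most. Tnnt3 lay between 5.29 and 5.55, and Acta1, given above, was high in the same 2 arrays. With Acta1 in it, the summed level of the 5 was 166, 186 and 327 in Hira-null arrays, against 414, 200 and 191 in WT arrays. Endothelial markers had 4 of 5 measured and a median of -0.01, with 0 at an unadjusted p under 0.05. Pecam1 and Tek were highest in Hira-null replicate 3, at 9.04 and 7.45, whereas Kdr was lowest there, at 3.94, and Cdh5 stayed between 3.72 and 4.0. Emcn read 2.86 at most and did not pass the filter. The 2 arrays were each the highest of their line for 1 of the 4.

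ES cell markers did not share the pattern. All 8 were measured, 4 higher and 4 lower in Hira-null arrays, with a median of 0.02, 0 passing in limma and 1 at an unadjusted p under 0.05. For 0 of the 8 did WT replicate 1 and Hira-null replicate 3 each stand highest. Klf4 stood at 0.41 (SE 0.13), Pou5f1 at 0.27, Dppa5a at 0.18, Nanog at 0.05, Tdgf1 at -0.01, Esrrb at -0.08, Sox2 at -0.11 and Zfp42 at -0.43. Sox2 was lowest in Hira-null replicate 3, at 9.44 against 10.09 to 10.41 elsewhere. All these markers but Esrrb were lowest of their line in Hira-null replicate 3. In WT replicate 1, Pou5f1, Zfp42, Klf4 and Tdgf1 were lowest of their line, and Nanog, Sox2 and Dppa5a highest. The summed linear level of the 8 was 17900, 16800 and 13700 in Hira-null arrays, against 14800, 15500 and 15300 in WT arrays. That sum was thus lowest of each line in the 2 arrays where most of the 10 genes were high. The list medians were 0.21, 0.11 and -0.12 in Hira-null arrays, against -0.03, -0.01 and -0.04 in WT arrays.

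Without Hira-null replicate 3 and WT replicate 1, the median difference between the lines was 0.20 for the ES cell markers and 0.12 for the other YAP and TEAD targets, the lists that moved most. It was 0.01 for the SRF and actin regulators, 0.02 for the Hippo pathway and TEAD genes, -0.08 for the other SRF and MRTF targets and 0.07 for the immediate-early targets. For the TGF-beta targets it was 0.28, for the fibroblast markers -0.31 and for the endoderm markers -0.37. The muscle lists gave -0.12 (mature smooth), -0.17 (cardiac) and -0.13 (skeletal), and the endothelial markers gave -0.09. Over all genes kept it was 0.

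Genes outside the lists that were most like the mean of the 10 were sought among 2520 genes with a range of at least 1 log2 unit. Likeness was the root mean square difference of centred values over the 6 arrays, and a small value over 6 arrays is easily found among so many genes. The nearest were Fbxo47 (0.14), Tm6sf1 (0.16), Man2a1 (0.17), Mmp2 (0.17) and Aif1l (0.19). Prtg (0.20), Epb41l3 (0.21), Med12l (0.21), Timp2 (0.21) and Cpd (0.22) followed. Mmp2 encodes a matrix metalloproteinase and Timp2 its inhibitor. Mmp2 read 6.77, 6.77 and 7.64 in Hira-null arrays, against 8.62, 7.44 and 7.25 in WT arrays. Timp2 read 4.99, 4.97 and 5.97 in Hira-null arrays, against 6.87, 5.43 and 5.45 in WT arrays. Among the 10 genes themselves the same measure ran from 0.18 for Tpm1 to 0.83 for Acta2, whose swings were larger than the mean.

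**Figure D5:**
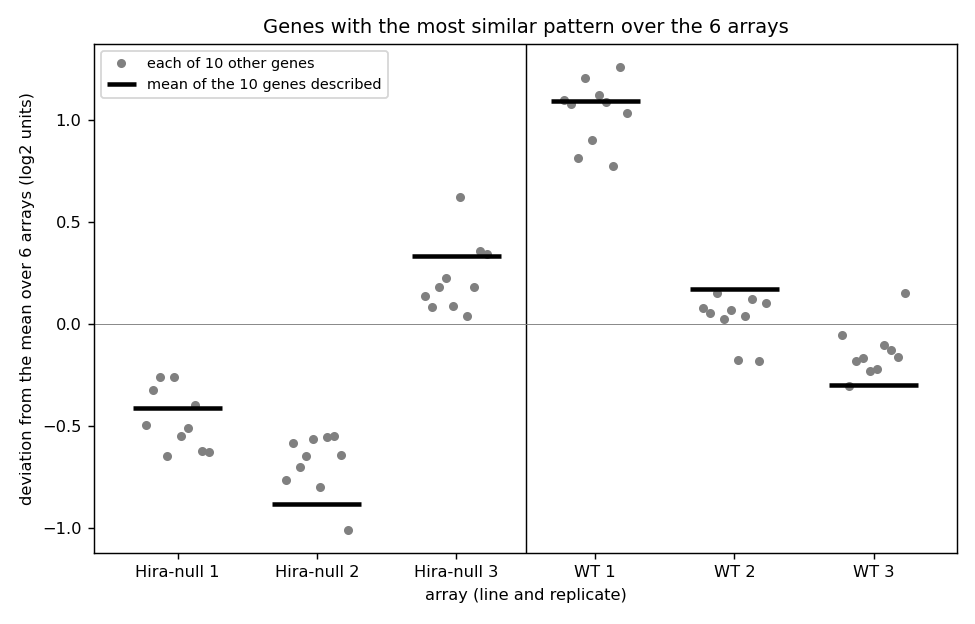
Deviation from the mean over the 6 arrays, in log2 units, for the 10 genes most like the described set (grey points) and for the mean of the described set (black bars). The black bars lie at -0.41, -0.88 and 0.33 in Hira-null arrays, against 1.09, 0.17 and -0.30 in WT arrays.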

How the data were processed

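The authors deposited log2 expression values for 35557 probe sets on 6 arrays, with GCRMA named, without a version, in the submitters' processing notes. That the scale is log2 was inferred from the range of values (1.14 to 14.03), the genome build is not given in the sources used here, and scanner signals were not analysed here. Of the probe sets, 21789 carry 1 symbol in the platform table, and 21698 of these were updated by Entrez identifier with the GRCm38.p6 gene table. The filter kept 25142 probe sets, those above 3.78 (the 30th percentile of the table) on at least 3 of 6 arrays. These were fitted as Hira-null minus WT with limma 3.58.1 in R 4.3.3 (lmFit and eBayes, two-sided, no covariate, Benjamini-Hochberg over all kept). In the 13 lists the probe set of highest mean stood for a gene. Each list names its 4 members of smallest p, all measured members in lists of 8 or fewer, and others where said. The 10 genes, lists and rules were chosen with earlier results of these data known. The fit was tested on simulated data with independent noise on each array, which does not copy the deviations that these arrays share. Alternatives were other filters, normalizations, weights, a replicate block and arrays left out. Same-numbered arrays were not taken as pairs, since no label says that a number is shared between the lines. Their deviations correlated at -0.34, 0.17 and -0.10. The highest correlation across the lines, 0.44, was between Hira-null replicate 3 and WT replicate 1. Precision is limited by the number of arrays: the median SE was 0.17 over all probe sets kept and 0.46 over the 10 genes.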

Additional observations from a re-analysis of the deposited data

How the results depend on the processing

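The median difference of the 10 genes stayed below 0 under all 12 alternatives, and 0 of the 10 passed in limma under any of 14. With one array left out it ran from -1.20 to -0.22, and Myl9 (-0.28 to 0.15) and Tpm2 (-0.29 to 0.17) changed sign under some of these. The range of the 10-gene mean fell to 0.47 in Hira-null arrays without Hira-null replicate 3 and to 0.47 in WT arrays without WT replicate 1, against 1.20 and 1.39 with all arrays, and was 0.47 in each line without both. With one array left out these ranges ran from 0.47 to 1.20 in Hira-null and from 0.47 to 1.39 in WT arrays. Over all probe sets, 1 was called with all arrays. The count was 5 with arrayWeights, 2 with median centring, 2 with the stricter filter at the 50th percentile (4.99), 0 with the replicate block, 0 with Hira-null replicate 3 and WT replicate 1 both left out, and 0 to 43 with one array left out, 43 without Hira-null replicate 2. The cause was not tested. The replicate block, which left the median difference at -0.79, pairs arrays that share only a number, and not every array correlated best with its own number. Each of the 10 genes has 1 probe set, so averaging probe sets changed nothing.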
